A study of Mus musculus with 6 samples.

Results

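The genes described here are 8 claudins (Cldn1, Cldn2, Cldn3, Cldn4, Cldn6, Cldn7, Cldn12 and Cldn15) with occludin (Ocln) and ZO-1 (Tjp1), the core proteins of the tight junction. They were taken by symbol, and all 10 were found among the 20571 gene symbols shared by the 6 count tables. Their RNA was sequenced in 3 groups of mouse liver progenitor-like cells, epithelial cells that divide in culture after leaving the adult liver, with 2 libraries in each group. All animals were of the C57BL/6 strain and 6 to 8 weeks old, and all cells were kept in Transition and Expansion Medium. Bec_LPCs came from wild-type mice: fragments of intrahepatic bile duct were grown in matrigel, passaged and sorted, and the series text calls these cells Epcam+. Epcam is therefore no finding in that group. NPC_LPCs were derived from the non-parenchymal fraction, which is what remains of liver once hepatocytes are removed, of mice carrying AlbCreERT and R26GFP, a tamoxifen-inducible Cre under the albumin promoter with a green reporter. Hep_LPCs came from hepatocytes of ROSA26tdTomato reporter mice given AAV8-TBG-Cre, a virus that expresses Cre from a hepatocyte promoter. Source tissue, genotype, virus and sort move together with the groups and cannot be told apart. Whether the 2 libraries of a group are separate animals or cultures is not in the labels. The p-values therefore cover no more than the spread between these samples, which may be technical. Replicates were far closer to each other in Bec_LPCs than in NPC_LPCs or Hep_LPCs. Fewer cells of a type and less RNA per cell cannot be told apart in such bulk samples.

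Tight junctions seal the space between neighbouring epithelial cells near their apical side and set which ions and solutes may pass. Claudins form the strands of the junction. Some, such as Cldn1, Cldn3 and Cldn4, tighten the barrier, while Cldn2 and Cldn15 form channels for small cations and water. Occludin, a MARVEL protein, lies in the same strands, and ZO-1 is the cytoplasmic scaffold that ties claudins and occludin to actin. In liver these junctions close the bile canaliculi between hepatocytes and line the bile ducts, keeping bile apart from blood.

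The libraries held 17575998 to 22985844 counts each. Levels are counts scaled to CPM on TMM-adjusted library sizes, and genes are compared with each other only as CPM per kilobase of exon. A mean is given ± SD over n = 2 libraries. Calls are at an adjusted p under 0.05 in edgeR's quasi-likelihood test, and fold changes are log2 values ± SE from that fit. Chi-square per degree of freedom between the counts of 2 replicates was 5.52 in Bec_LPCs, 92.5 in Hep_LPCs and 111 in NPC_LPCs. Hep_LPCs replicate 2 also stood apart in Ddx3y, a Y-linked helicase gene, with 0.0593 CPM against 60.4 to 102 CPM in the other 5 libraries. Albumin had at most 41 reads in any library, Cyp2e1 had 0 reads in all 6, and the keratins Krt8 and Krt18 were at 734 to 4240 CPM and 816 to 3915 CPM. The cells thus carried epithelial keratins and almost no albumin or Cyp2e1 transcripts. Of the other hepatocyte markers, Ttr had at most 44 reads and Apoa1 at most 95 in any library. Hnf4a was not near 0, at 125 and 104 CPM in Bec_LPCs, 28.8 and 51.2 CPM in NPC_LPCs and 248 and 262 CPM in Hep_LPCs. Of markers of other cells, the leukocyte gene Ptprc had at most 18 reads and the endothelial gene Pecam1 at most 15. Others were not near 0: Cd14 and Cd68 of the leukocyte and macrophage list were at 39.1 to 161 CPM and 8.66 to 83.9 CPM. The endothelial gene Kdr had 35 and 23 reads in Bec_LPCs, 34 and 62 in NPC_LPCs and 122 and 97 in Hep_LPCs (7.14 and 5.75 CPM). The mesothelial gene Msln was at 209 to 826 CPM, and the 4 mesothelial markers summed to 537 to 574 CPM in Bec_LPCs, 238 to 644 CPM in NPC_LPCs and 213 to 865 CPM in Hep_LPCs. The 7 mesenchymal and stellate markers summed to 86.1 to 100 CPM in Bec_LPCs, 5.54 to 13.7 CPM in NPC_LPCs and 4.39 to 6.26 CPM in Hep_LPCs, with Lum at 0 in all 6 libraries. The part of these markers in the claudin levels was not tested.

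The promoters of the 3 claudins below are printed because those genes differed most between groups (Cldn4, Cldn7) or stood highest (Cldn2). Each is the 250 bases before the gene's start in RefSeq on GRCm38.p6, from 5′ to 3′ on the gene's own strand: chr5:134946935-134947184 (minus strand) for Cldn4, chr11:69964529-69964778 (plus strand, the first of its starts) for Cldn7 and chrX:139800558-139800807 (plus strand) for Cldn2. Capitals mark matches, on either strand, to 4 motifs: CAGGTG, the E-box bound by Snail and Zeb repressors, AACCGGTT, the grainyhead motif, TATAAA, the TATA box, and TGACTCA, the AP-1 motif.
Cldn4: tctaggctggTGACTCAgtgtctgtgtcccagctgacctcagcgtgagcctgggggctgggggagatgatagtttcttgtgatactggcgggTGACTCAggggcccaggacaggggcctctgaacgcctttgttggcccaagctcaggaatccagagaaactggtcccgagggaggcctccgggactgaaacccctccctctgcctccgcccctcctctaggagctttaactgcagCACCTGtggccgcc
Cldn7: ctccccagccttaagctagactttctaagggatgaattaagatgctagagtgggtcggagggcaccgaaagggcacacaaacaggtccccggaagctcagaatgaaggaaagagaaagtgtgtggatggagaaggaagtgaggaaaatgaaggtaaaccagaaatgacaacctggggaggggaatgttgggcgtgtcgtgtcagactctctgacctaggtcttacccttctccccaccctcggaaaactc
Cldn2: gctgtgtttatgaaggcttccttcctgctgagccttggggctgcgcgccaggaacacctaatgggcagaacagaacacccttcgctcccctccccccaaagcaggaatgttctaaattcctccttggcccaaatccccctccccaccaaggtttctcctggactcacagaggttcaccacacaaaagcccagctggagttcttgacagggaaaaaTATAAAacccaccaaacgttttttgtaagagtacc
The Cldn4 window held TGACTCA at 240 and 158 bases before the start and the E-box, read as CACCTG, at 14 bases. The Cldn2 window held TATAAA at 35 bases before the start, and the Cldn7 window held none of the 4 motifs. All 10 genes matched the RefSeq table, with 14 such windows. The E-box was in 4 of these 14 windows (Cldn4, Cldn6, Ocln and the other start of Cldn7) against 17.2% of 32851 windows of all genes. TGACTCA was in 2 (Cldn4 and Cldn15) against 4.46%, TATAAA in 1 against 12.4%, and AACCGGTT in 0 against 0.116%. The motifs do not overlap in these windows and were chosen with the levels known, so the matches are a description of the sequence and say nothing of which factors bind.

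Bec_LPCs carried the broadest set of claudin transcripts. Of the 8 claudins, 7 were at 1 CPM or more in both Bec_LPCs libraries, against 3 and 6 in NPC_LPCs replicates 1 and 2 and 4 in each Hep_LPCs library. Summed per kilobase of exon, the 8 claudins stood at 526 ± 4.22 CPM per kilobase in Bec_LPCs, 302 ± 35.7 in NPC_LPCs and 123 ± 18.6 in Hep_LPCs, with no overlap between libraries of different groups. Most of the gap between NPC_LPCs and Hep_LPCs lay in Cldn2, since without that gene the sums were 62.0 ± 56.0 and 57.9 ± 24.8 CPM per kilobase, with overlapping libraries. Bec_LPCs remained higher without it, at 297 ± 25.8 CPM per kilobase.

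**Figure D1:**
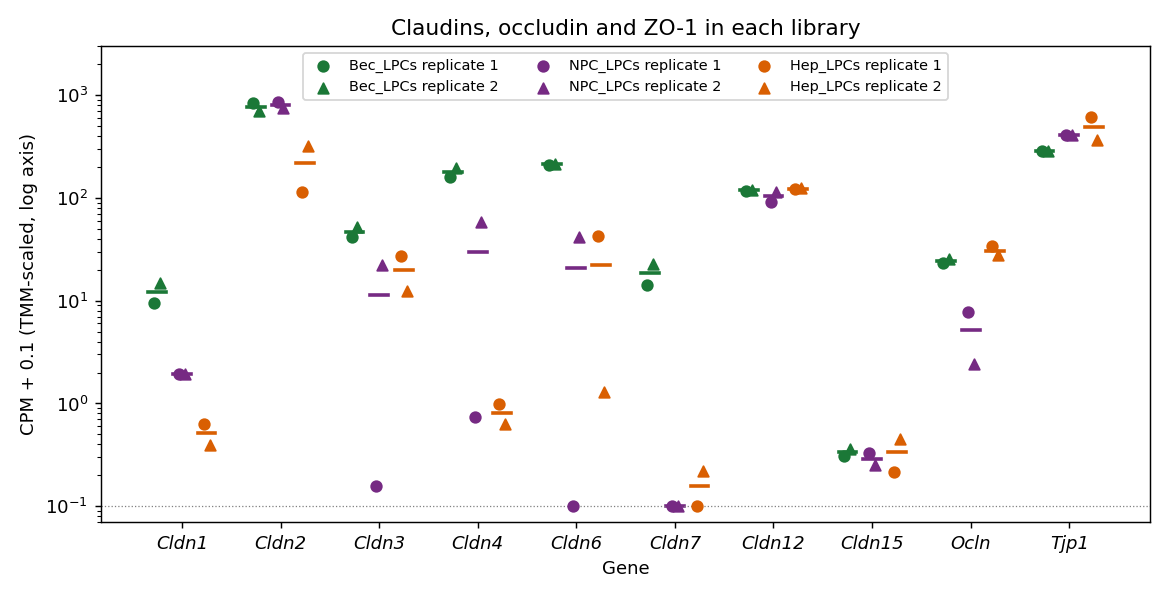
Level of each of the 10 genes (horizontal axis) in each library, as CPM + 0.1 on a log axis; colours are the groups and marker shapes the replicates. The points of Cldn12 lie close together over the 6 libraries (91.1 to 124 CPM), and those of Tjp1 run from 283 to 611 CPM. Cldn3, Cldn4 and Cldn6 fall near the bottom in NPC_LPCs replicate 1 (0.0577, 0.635 and 0 CPM).

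Among the barrier-forming claudins, Cldn1, Cldn4 and Cldn7 set Bec_LPCs apart from Hep_LPCs, and Cldn1 and Cldn7 from NPC_LPCs. Cldn1, a sealing claudin of hepatocytes, bile ducts and skin (chromosome 16, 26356642 to 26371841 in mm10, minus strand), was at 9.37 and 14.8 CPM in Bec_LPCs, 1.85 and 1.83 CPM in NPC_LPCs and 0.527 and 0.297 CPM in Hep_LPCs. The groups did not overlap and stood in the order Bec_LPCs, NPC_LPCs, Hep_LPCs. Against Hep_LPCs the log2 fold change was 4.85 ± 0.52 (edgeR adjusted p = 0.00358), and that call held in every alternative run (adjusted p up to 0.0442). Against NPC_LPCs it was 2.71 ± 0.45 (adjusted p = 0.0238), a call lost on leaving out any 1 library of either group: adjusted p = 0.169 and 0.288 without Bec_LPCs replicates 1 and 2, and 0.0678 and 0.0597 without NPC_LPCs replicates 1 and 2. Hep_LPCs against NPC_LPCs gave -2.16 ± 0.79, which was not called (adjusted p = 0.191).

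Cldn7, a claudin of ducts and gut that binds Epcam (chromosome 11, 69964779 to 69967885, plus strand), was the one member with reads almost only in Bec_LPCs. It had 331 and 530 reads there (14.0 and 22.7 CPM), 0 reads in both NPC_LPCs libraries, and 0 and 2 reads in Hep_LPCs. Against a floor of 3 reads per library it was at least 113-fold higher than in NPC_LPCs (edgeR adjusted p = 0.0120, lost without Bec_LPCs replicate 2 at 0.0810). Against Hep_LPCs the ratio of pooled levels was 311, with a 95% counting interval of 85.8 to 2570 that covers counting error only (adjusted p = 0.00624, up to 0.0487 over the alternatives). Cldn7 passed the low-count filter through its Bec_LPCs libraries alone. It was also the member whose Bec_LPCs libraries differed most from each other, by 1.62-fold, where the median gene differed by 1.06-fold.

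Cldn4 (chromosome 5, 134945119 to 134946934, minus strand), a barrier claudin of simple epithelia whose promoter is printed above, was high in both Bec_LPCs libraries at 160 and 195 CPM. It was near the floor in Hep_LPCs at 0.878 and 0.534 CPM (15 and 9 reads). NPC_LPCs replicate 1 had 11 reads (0.635 CPM) and replicate 2 had 1153 (58.6 CPM), the first between the Hep_LPCs libraries and the second below both Bec_LPCs libraries. Against Hep_LPCs the log2 fold change was 7.96 ± 1.99 (edgeR adjusted p = 0.0301). The call was lost on leaving out any 1 of these 4 libraries (adjusted p = 0.151, 0.143, 0.131 and 0.129 without Bec_LPCs replicates 1 and 2 and Hep_LPCs replicates 1 and 2), and by limma-voom (0.0750). Against NPC_LPCs it was 2.58 ± 1.46 (adjusted p = 0.281), but 8.11 without NPC_LPCs replicate 2 (adjusted p = 0.00931). Between Hep_LPCs and NPC_LPCs the sign itself followed 1 library: -5.41 ± 2.00 with all 4 (adjusted p = 0.207), -6.38 without NPC_LPCs replicate 1 (adjusted p = 0.00250) and 0.15 without NPC_LPCs replicate 2.

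Cldn3 and Cldn6 were highest in Bec_LPCs too, yet neither was called, and replicates of the other groups lay far apart in both genes. Cldn3, a barrier claudin that lies next to Cldn4 with 39279 bases between them (chromosome 5, 134986214 to 134987472, plus strand), was at 41.3 and 51.7 CPM in Bec_LPCs, 0.0577 and 22.3 CPM in NPC_LPCs and 26.9 and 12.3 CPM in Hep_LPCs. Its fold change was 2.05 ± 1.53 against NPC_LPCs (edgeR adjusted p = 0.404) and 1.25 ± 1.49 against Hep_LPCs (adjusted p = 0.542). Without NPC_LPCs replicate 2 the first of these became 9.50 (adjusted p = 0.0211), and Hep_LPCs against NPC_LPCs went from 0.77 ± 1.73 (adjusted p = 0.827) to 8.23 (adjusted p = 0.0326). Both rest on a library with 1 read of Cldn3, and without NPC_LPCs replicate 1 Hep_LPCs against NPC_LPCs turned to -0.20. A share of 3.18% of its exons overlaps another gene, Wbscr25. No other member overlaps any gene.

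Cldn6, a claudin of embryonic and fetal epithelia (chromosome 17, 23679249 to 23682446, plus strand), was at 209 and 213 CPM in Bec_LPCs. It was at 0 and 41.4 CPM in NPC_LPCs and at 42.9 and 1.19 CPM in Hep_LPCs. The Bec_LPCs libraries thus lay above all others and close to each other, while 1 library of each other group was at 41 to 43 CPM and the other at or near 0. Its fold change was 3.34 ± 2.10 against NPC_LPCs (edgeR adjusted p = 0.328) and 3.26 ± 2.10 against Hep_LPCs (adjusted p = 0.266). Hep_LPCs against NPC_LPCs gave 0.05 ± 2.30, which turned to -0.93 without NPC_LPCs replicate 1 and to -4.13 without Hep_LPCs replicate 1. The neighbouring Cldn9, on the minus strand, lies 137 bases beyond the end of Cldn6.

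Cldn2, a cation- and water-conducting claudin (chromosome X, 139800828 to 139811386, plus strand), had the highest level per length of the 8 claudins in every library. It was at 833 and 691 CPM in Bec_LPCs, 847 and 751 CPM in NPC_LPCs and 115 and 319 CPM in Hep_LPCs. Both Hep_LPCs libraries lay below the other 4, which overlapped. Per kilobase of exon the means were 229, 240.2 and 65.2 CPM. It made up 43.5 ± 5.36% of the summed claudin level per kilobase in Bec_LPCs, 80.4 ± 16.2% in NPC_LPCs and 50.9 ± 27.5% in Hep_LPCs. On the authors' FPKM, deposited for NPC_LPCs and Hep_LPCs, the rank in Hep_LPCs replicate 1 differed, with Cldn6 at 43.1 and Cldn12 at 41.0 above Cldn2 at 28.8.

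Bec_LPCs exceeded Hep_LPCs in Cldn2 by 1.81 ± 0.47 (edgeR adjusted p = 0.0325). The call was lost without Bec_LPCs replicate 1 (0.137) or 2 (0.106), and narrowly without NPC_LPCs replicate 1 (0.0535) or 2 (0.0534) or with the 4 libraries alone (0.0537). Hep_LPCs against NPC_LPCs gave -1.90 ± 0.50, which was not called (adjusted p = 0.115, and 0.00208 by DESeq2's Wald test). Bec_LPCs against NPC_LPCs gave -0.07 ± 0.45 (adjusted p = 0.933), with an interval of ± 2 SE from -0.97 to 0.84. Cldn15, the other channel-forming claudin (chromosome 5, 136966616 to 136975858, plus strand), had 2 to 6 reads in each library (0.117 to 0.356 CPM). It passed no filter, and no difference was detectable at this depth.

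Cldn12, a claudin without the usual motif for binding ZO proteins (chromosome 5, 5489537 to 5514958, minus strand), was the steadiest of the claudins. Its levels were 116 and 120 CPM in Bec_LPCs, 91.1 and 115 CPM in NPC_LPCs and 121 and 124 CPM in Hep_LPCs. Fold changes were 0.19 ± 0.17 for Bec_LPCs against NPC_LPCs (interval of ± 2 SE from -0.15 to 0.54), -0.06 ± 0.17 for Bec_LPCs against Hep_LPCs (-0.40 to 0.29) and 0.23 ± 0.25 for Hep_LPCs against NPC_LPCs (-0.26 to 0.72). None was called (edgeR adjusted p from 0.486 to 0.822). In Hep_LPCs it followed Cldn2 in level per kilobase, with 23.7 ± 3.07% of the summed claudin level.

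**Figure D2:**
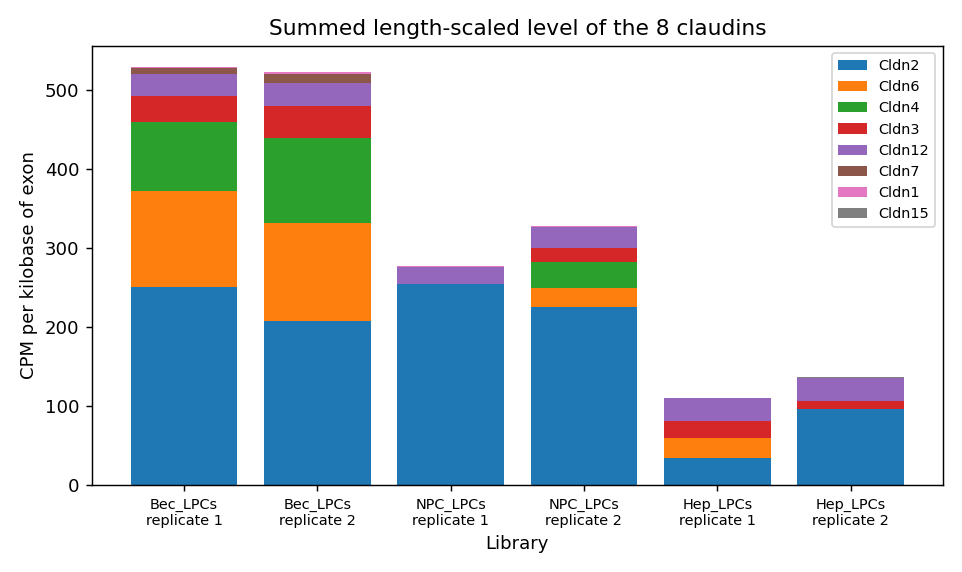
Stacked bars of the level of each of the 8 claudins in each library, in CPM per kilobase of exon. Cldn2 is the tallest segment in all 6 libraries, and the whole bar is 523 to 529 in Bec_LPCs, 277 to 327 in NPC_LPCs and 110 to 136 in Hep_LPCs.

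Occludin was lowest in NPC_LPCs, and its levels in the other groups lay close to each other. Ocln (chromosome 13, 100496507 to 100552718, minus strand) was at 23.4 and 25.5 CPM in Bec_LPCs, 7.73 and 2.34 CPM in NPC_LPCs and 33.5 and 27.6 CPM in Hep_LPCs. Neither of the other groups overlapped NPC_LPCs. Bec_LPCs against NPC_LPCs gave 2.28 ± 0.54 at the edge of the threshold (edgeR adjusted p = 0.0502). It was called by DESeq2's Wald test (3.18e-04), by limma-voom (0.0271), with library size alone (0.0435), with no low-count filter (0.0423), without NPC_LPCs replicate 1 (3.34, 0.0165) and without NPC_LPCs replicate 2 (1.66, 0.0361). Hep_LPCs against NPC_LPCs gave 2.59 ± 0.60 (adjusted p = 0.0985), which was called by DESeq2 (4.63e-04), in the fit of all 6 libraries (0.0414) and without NPC_LPCs replicate 1 (3.68, 0.0194). Bec_LPCs against Hep_LPCs gave -0.32 ± 0.51 (adjusted p = 0.647), with an interval of ± 2 SE from -1.34 to 0.69. Per kilobase, occludin stood at 5.79 CPM in Bec_LPCs, 1.19 in NPC_LPCs and 7.24 in Hep_LPCs.

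Tjp1, the scaffold ZO-1 (chromosome 7, 65296165 to 65527781, minus strand), was the only member lowest in Bec_LPCs. Its levels were 288 and 283 CPM in Bec_LPCs, 407 and 409 CPM in NPC_LPCs and 611 and 365 CPM in Hep_LPCs. Both Bec_LPCs libraries lay below the other 4, and the Hep_LPCs libraries lay on either side of NPC_LPCs. The fold change was -0.77 ± 0.26 against Hep_LPCs (edgeR adjusted p = 0.0656, and 0.0247 by DESeq2) and -0.52 ± 0.26 against NPC_LPCs (adjusted p = 0.235), neither of them called. Leaving out Hep_LPCs replicate 2 gave -1.10 for the first (adjusted p = 0.0103). The second was called without Hep_LPCs replicate 1 (0.0410) or 2 (0.0411) and with the 4 libraries alone (0.0378). Hep_LPCs against NPC_LPCs gave 0.24 ± 0.32 (adjusted p = 0.689) and turned to -0.17 without Hep_LPCs replicate 1.

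Member calls are given here beside the share of all genes called. For Bec_LPCs against Hep_LPCs, 33.4% of 12867 genes were called, and of the 9 members tested 4 were called higher (Cldn1, Cldn2, Cldn4, Cldn7) and 0 lower, where 16.1% of all genes were called higher and 17.2% lower. The median of the members was 1.81 and that of all genes 0.03. For Bec_LPCs against NPC_LPCs, 11.3% of genes were called, and 2 of 9 members were called higher (Cldn1, Cldn7), where 4.89% of all genes were called higher and 6.44% lower, with medians of 2.28 and 0.01. For Hep_LPCs against NPC_LPCs, 0.781% of 12159 genes were called (0.354% higher, 0.428% lower) and 0 of 8 members by edgeR. At an unadjusted p under 0.05 Ocln was higher and Cldn1, Cldn2 and Cldn4 were lower, DESeq2 called Ocln and Cldn2, and limma-voom called none. Libraries of the groups did not overlap for 9 of 9 members in Bec_LPCs against Hep_LPCs (6 higher, 3 lower), where 77.6% of all genes did not (40.8% higher, 36.8% lower). Against NPC_LPCs this held for 8 of 9 (7 higher, 1 lower), where 70.0% of all genes did not overlap (37.0% and 33.0%). Between Hep_LPCs and NPC_LPCs it held for 4 of 8 (2 higher, 2 lower), where 56.6% of all genes did not overlap (28.9% and 27.7%). The shared groups link these comparisons, and members such as Cldn7 entered the fits through the group where they are high, so the counts describe the members and show nothing particular to them.

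The calls between Bec_LPCs and the other groups also depend on how libraries are scaled and on how the tables were made. When libraries were scaled by their size alone, calls higher in Bec_LPCs went from 43.1% to 61.2% of calls against NPC_LPCs and from 48.3% to 60.9% against Hep_LPCs, and the median of all genes shifted to 0.17 and 0.21. The 6 member calls were kept under it. The Bec_LPCs tables were laid out differently from the others, and whether the counting rule differed was not tested. All 10 members are protein-coding genes with no overlap with another protein-coding gene and no near-identical copy. Their 6 calls were also kept in a fit of protein-coding genes alone. Genes of that fit overlap other protein-coding genes over at most 25% of their exons. Copies were looked for only for the members, so that fit was not cleared of genes with copies.

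**Figure D3:**
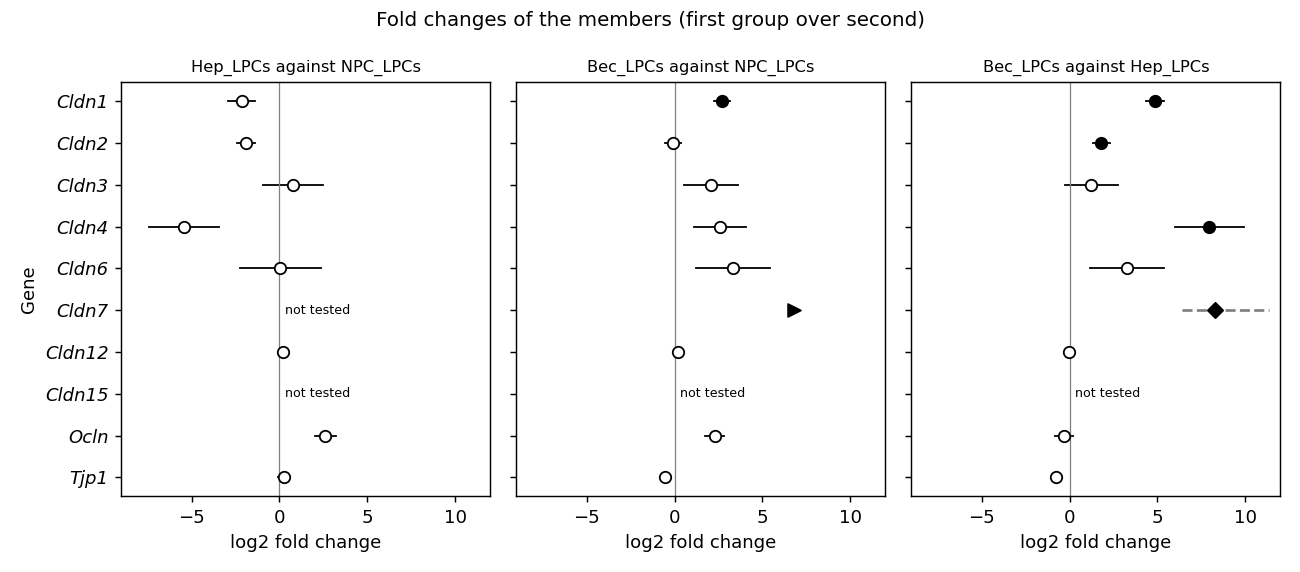
log2 fold change (first group over second) of each tested member in the 3 comparisons, with bars of ± 1 SE; filled points were called at an adjusted p under 0.05, and the triangle marks the lower bound of Cldn7 in Bec_LPCs against NPC_LPCs and the diamond its ratio of pooled levels to Hep_LPCs, with the counting interval dashed. Cldn12 lies near 0 in each panel (-0.06 to 0.23), while Cldn3 and Cldn6, with an SE of 1.49 to 2.30, have the widest bars along with Cldn4.

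The replicates of a group differed far more in some claudins than in most genes. Between the 2 NPC_LPCs libraries, on log2(CPM + 0.1) and among 10425 genes at 5 CPM or more in either, replicate 1 minus replicate 2 was -8.70 for Cldn6, -7.15 for Cldn3 and -6.32 for Cldn4. Only 2, 9 and 20 genes differed by more. Ocln went the other way at 1.68 (467 genes differed by more). Cldn2, Cldn12 and Tjp1 differed by 1.13-fold, 1.26-fold and 1.01-fold, where the median gene differed by 1.24-fold. The junction genes of these libraries thus did not shift as one.

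Other epithelial genes of NPC_LPCs were split in both directions too. The biliary keratin Krt7 had 26 reads (1.50 CPM) in replicate 1 and 348 reads (17.7 CPM) in replicate 2, Krt19 at 117 and 282 CPM, and the 3 general epithelial markers summed to 1995 and 3267 CPM. The adhesion gene Cdh1, one of those 3, was instead at 445 and 109 CPM. Markers of other cells were not higher throughout in either library: Cd68 was at 83.9 and 20.9 CPM, Upk1b at 35.0 and 0.406 CPM, and Col1a1 at 2.89 and 12.1 CPM. Their part in the claudin differences was not tested.

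In Hep_LPCs the same gene, Cldn6, was the member that differed most, higher in replicate 1 by 5.06 on this scale, with 15 of 10287 genes differing more. Cldn2 was 2.77-fold higher in replicate 2 and Cldn3 2.18-fold higher in replicate 1, against a median gene difference of 1.30-fold. In Bec_LPCs no member differed by more than the 1.62-fold of Cldn7, and Cldn6 differed by 1.02-fold.

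**Figure D4:**
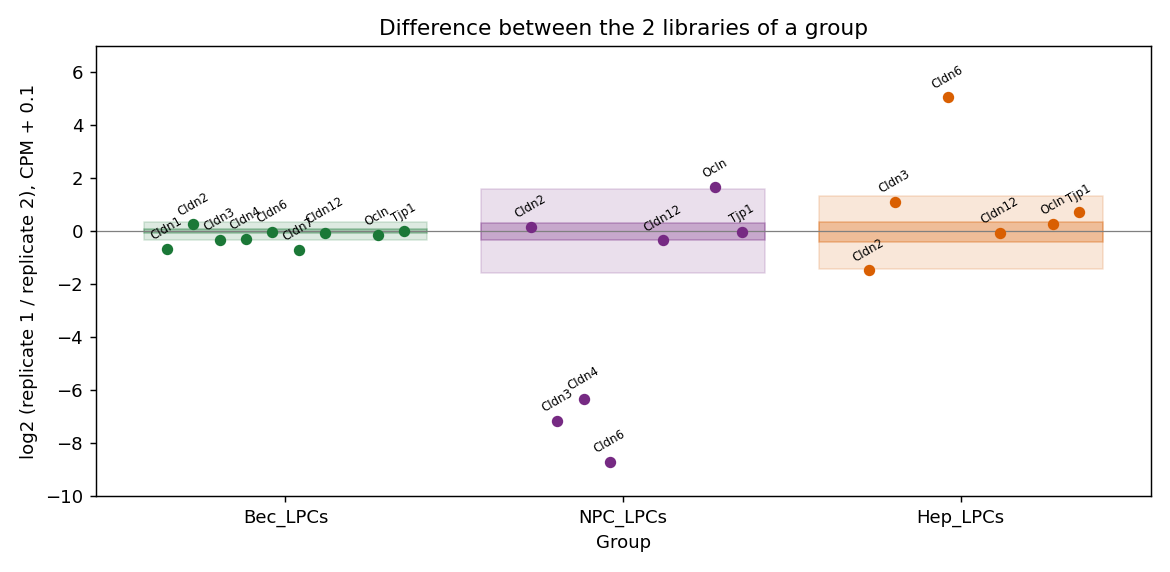
log2 ratio of replicate 1 to replicate 2 of each group on CPM + 0.1, for members at 5 CPM or more in either library (points); the dark bands are the middle quartiles of all such genes and the pale bands hold 95% of them. In NPC_LPCs, Cldn6, Cldn3 and Cldn4 lie between -8.70 and -6.32, far below the range holding 95% of genes (-1.56 to 1.61), and in Hep_LPCs Cldn6 lies at 5.06.

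Most other genes of the claudin family had few or no reads. Of 27 further claudin genes looked for, 25 were in the tables, 15 had 0 reads in all 6 libraries and 6 had at most 10 reads in any, while 3 were tested. Cldnd1, a distant relative, was at 58.5 and 55.1 CPM in Bec_LPCs, 63.4 and 127 CPM in NPC_LPCs and 113 and 90.4 CPM in Hep_LPCs. Cldn34c1 was at 3.50 and 4.16 CPM, 1.50 and 1.02 CPM, and 0.117 and 0.237 CPM in the same order, and was the 1 of 3 called, higher in Bec_LPCs than in Hep_LPCs (4.39 ± 0.65, edgeR adjusted p = 0.00787).

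Proteins that share the strands with occludin or lie at corners where several cells meet moved in both directions. Marveld3, a relative of occludin, was at 5.23 and 6.09 CPM in Bec_LPCs, 0.462 and 0.305 CPM in NPC_LPCs and 0.819 and 0.534 CPM in Hep_LPCs, and rose by 3.87 ± 0.56 and 3.05 ± 0.53 against them (edgeR adjusted p = 0.0169 and 0.0117). Ildr1, an angulin of such corners, was at 5.15 and 8.06 CPM in Bec_LPCs and had 2 reads in all in NPC_LPCs, a ratio of pooled levels of 122 (95% counting interval 33.5 to 1011, adjusted p = 0.0380). Neither Marveld3 nor Ildr1 was tested between Hep_LPCs and NPC_LPCs, and both entered the fit of 6 through Bec_LPCs, where they are high. Lsr, the angulin of liver, went the other way: 68.2 and 67.2 CPM in Bec_LPCs, 165 and 192 CPM in NPC_LPCs and 292 and 370 CPM in Hep_LPCs. It was lower in Bec_LPCs by -1.40 ± 0.19 against NPC_LPCs and -2.29 ± 0.19 against Hep_LPCs (adjusted p = 0.0143 and 0.00210). Ildr2 was also lower against Hep_LPCs (-1.32 ± 0.32, adjusted p = 0.0276). Of the 5 genes of this list, 2 were called higher and 1 lower against NPC_LPCs, 2 higher and 2 lower against Hep_LPCs, and 0 of 3 tested between Hep_LPCs and NPC_LPCs, where 11.3%, 33.4% and 0.781% of all genes were called.

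Scaffold and adhesion partners were called in both directions against Hep_LPCs, and of the 8 polarity genes 1 was called, higher in Bec_LPCs. Of 18 plaque and scaffold proteins, 0 were called against NPC_LPCs (median -0.01), and 3 were higher and 3 lower in Bec_LPCs against Hep_LPCs (median 0.39), where 11.3% and 33.4% of all genes were called, the second close to the share of this list. Mpdz, a multi-PDZ scaffold that binds claudin tails, averaged 53.7 ± 0.724 CPM in Bec_LPCs against 16.0 ± 4.93 CPM in Hep_LPCs (1.75 ± 0.26, edgeR adjusted p = 0.0080). Amot, which binds YAP and polarity proteins at the junction, was at 66.0 ± 5.42 and 20.3 ± 7.18 CPM (adjusted p = 0.0117). Cgn, cingulin, which links ZO proteins to myosin, was at 65.9 ± 4.20 and 150 ± 7.35 CPM, and Tjap1 at 41.2 ± 1.21 and 124 ± 29.6 CPM (adjusted p = 0.00678 and 0.00580). Cgnl1 and Amotl2, the most abundant of the list, were at 378 ± 9.02 and 460 ± 9.19 CPM in Bec_LPCs and were not called. Of the genes of this list none was called between Hep_LPCs and NPC_LPCs by edgeR.

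Of 8 polarity genes, Crb3, the apical determinant, was called higher in Bec_LPCs, at 7.70 ± 1.11 CPM, than in NPC_LPCs, at 1.84 ± 0.637 CPM (edgeR adjusted p = 0.0485). Prkcz, an atypical protein kinase C, was called higher against Hep_LPCs (31.6 ± 2.35 and 6.82 ± 2.61 CPM, adjusted p = 0.00732). Prkci, its relative, and Lin7c were at 226 ± 10.5 and 201 ± 4.66 CPM in Bec_LPCs without a call. Each Bec_LPCs comparison thus called 1 of the 8 polarity genes, where 11.3% of all genes were called against NPC_LPCs and 33.4% against Hep_LPCs. Of the 7 tested junctional adhesion molecules, 0 were called against NPC_LPCs. Against Hep_LPCs, Jam3 was higher (3.57 ± 0.461 and 0.706 ± 0.160 CPM, adjusted p = 0.0271) and Esam lower (1.62 ± 0.0420 and 9.65 ± 3.30 CPM, adjusted p = 0.0111). The abundant Cxadr and F11r, receptors at the junction's apical border, were at 282 ± 9.50 and 187 ± 4.82 CPM in Bec_LPCs and were not called.

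**Figure D5:**
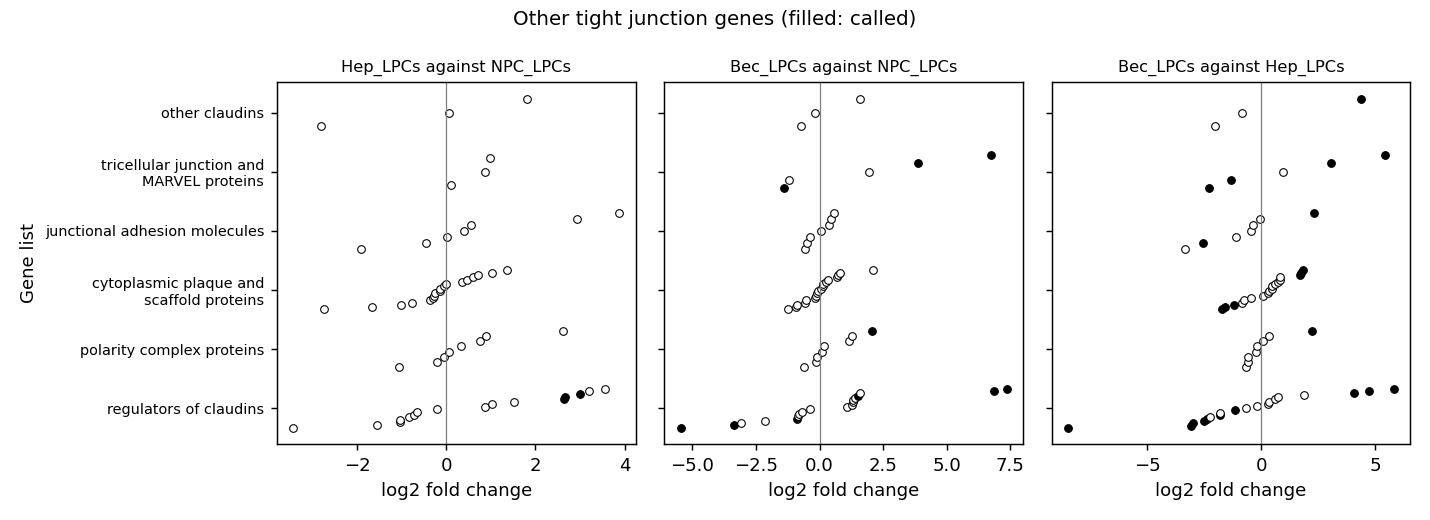
log2 fold change (horizontal axis) of the tested genes of 6 other junction lists (vertical axis) in the 3 comparisons; each point is a gene and filled points were called at an adjusted p under 0.05. A gene at 0 reads in a whole group (Prss8 in NPC_LPCs) is not drawn; the plaque and scaffold genes lie around 0 against NPC_LPCs, with a median of -0.01, and none of them is filled there.

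Regulators known to act on claudin genes or proteins were called in both directions. Grhl2, a grainyhead factor that activates Cldn4 and Cdh1 in epithelia, was at 6.58 and 7.63 CPM in Bec_LPCs, 0.0577 and 0.0508 CPM in NPC_LPCs and 0.176 and 0.652 CPM in Hep_LPCs. Its ratio of pooled levels to NPC_LPCs was 131 (95% counting interval 36.1 to 1089, edgeR adjusted p = 0.0120), and its log2 fold change against Hep_LPCs was 4.08 ± 0.69 (adjusted p = 0.0111). Grhl2 was not tested between Hep_LPCs and NPC_LPCs and entered the fit of 6 through Bec_LPCs, where it is high, so these calls support nothing further. Its relatives Grhl1 and Grhl3 and the epithelial factor Elf3, named after their values were seen, were called lower in Bec_LPCs than in Hep_LPCs, by -1.83 ± 0.52, -2.51 ± 0.74 and -3.02 ± 0.55 (adjusted p = 0.0417, 0.0475 and 0.0132). Snai1, a repressor of claudins and Cdh1, was lowest in Bec_LPCs at 2.24 and 1.24 CPM, against 13.6 and 22.7 CPM in NPC_LPCs and 8.07 and 10.1 CPM in Hep_LPCs (adjusted p = 0.0145 and 0.0138). Epcam, which binds Cldn7 and by which Bec_LPCs are described, was at 58.9 and 65.7 CPM there and at most 1.84 CPM elsewhere.

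Cdx2, an intestinal factor known to activate CLDN2, stood in the order Hep_LPCs, NPC_LPCs, Bec_LPCs. It was at 0.0844 and 0.0857 CPM in Bec_LPCs (2 reads in each), 3.52 and 4.52 CPM in NPC_LPCs and 34.6 and 30.8 CPM in Hep_LPCs. Cldn2 itself was at 217 ± 144 CPM in Hep_LPCs and differed by -0.07 ± 0.45 between Bec_LPCs and NPC_LPCs. Cdx2 rose from NPC_LPCs to Hep_LPCs by 3.0 ± 0.35 (edgeR adjusted p = 0.0392). Hnf4a, a transcription factor of hepatocytes, was also called higher in Hep_LPCs than in NPC_LPCs, at 248 and 262 CPM against 28.8 and 51.2 CPM (adjusted p = 0.0481). Neither Cdx2 nor Hnf4a kept this call without Hep_LPCs replicate 1, without replicate 2, by limma-voom or on log2(FPKM + 1). Of 19 regulators tested in the fit of 6, 4 were called higher and 3 lower against NPC_LPCs, and 3 and 7 against Hep_LPCs. Of all genes 4.89% were called higher and 6.44% lower against NPC_LPCs, and 16.1% and 17.2% against Hep_LPCs. The regulators called higher include, in both comparisons, Epcam, by which Bec_LPCs are described, and Grhl2, which entered the fit through Bec_LPCs. Against NPC_LPCs they also include Prss8, which entered in the same way. The counts therefore describe the list and show nothing particular to it.

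Calls in these lists rest on few libraries. Of the 11 list genes called in Bec_LPCs against NPC_LPCs, 1 kept its call without Bec_LPCs replicate 1 or without replicate 2, 6 without NPC_LPCs replicate 1 and 7 without NPC_LPCs replicate 2. Of the 24 called against Hep_LPCs, 4 kept it without Bec_LPCs replicate 1 or without replicate 2, and 16 and 19 without Hep_LPCs replicates 1 and 2. The lists and members were chosen with earlier results known, and no test was made of a list.

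The genes whose pattern over the 6 libraries lay nearest each member were found by the root mean square difference of centred log2 levels among 9976 genes. The points share libraries, and the likeness is a description. Nearest Cldn1 were Lgr6 (0.28 log2 units) and Pkp1 (0.31), and nearest Cldn2 were Bmp1 (0.12) and Gpc6 (0.18). Cldn4 lay nearest Tm4sf1 (0.47) and Uts2b (0.57), which share its low level in NPC_LPCs replicate 1: Tm4sf1 was at 212 and 209 CPM in Bec_LPCs, 0.462 and 111 CPM in NPC_LPCs and 0.702 and 0.415 CPM in Hep_LPCs. Cldn3 lay nearest Zfp951 (0.58) and Misp (0.65), and Cldn6 had no close match, with Cdcp1 at 1.59 and Cdh17 at 1.85.

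Cldn7 lay nearest Esrp1 (0.28), an epithelial splicing factor, and Grem1 (0.53). Esrp1 was at 19.4 and 24.0 CPM in Bec_LPCs, 0 and 0.0508 CPM in NPC_LPCs and 0.0585 and 0.119 CPM in Hep_LPCs. Ocln lay nearest Slc26a2 (0.24) and Icam1 (0.33). Cldn12 and Tjp1, which varied least, lay within 0.06 of Yeats4 and Mrps9 and of Prpf8 and Top1.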

How the data were processed

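Messenger RNA was sequenced from both ends with a stranded kit, per the labels' protocols. Trimmomatic, HISAT2, Cufflinks, HTSeq and DESeq, on build mm10, are named in the submitters' processing notes. Their versions, the strand setting and the annotation were not given in the sources used here. Each library has 1 table, in which the authors deposited whole-number counts by gene symbol, and for NPC_LPCs and Hep_LPCs also FPKM, scaled for length and depth by the authors and used here for an alternative and for 1 rank. The Bec_LPCs tables have 21834 rows, 14 of them unnamed (44 and 41 reads, 0.000191% and 0.000181% of the counts, left out), and the others 21878.

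Older symbols were updated with reference synonyms. The 20571 shared symbols hold 95.3% to 99.4% of each library's counts. edgeR 4.0.16 was used (TMM, filterByExpr, robust quasi-likelihood test, two-sided, Benjamini-Hochberg over all genes tested), with limma 3.58.1, DESeq2 1.42.0 and R 4.3.3. The 4 libraries of Hep_LPCs and NPC_LPCs had a fit of their own, and the Bec_LPCs comparisons used all 6. The SE is |log2 fold change| over the root of F. A floor is 3 reads per library. Exon lengths and positions are from GENCODE M21 (mm10, 1-based), overlaps from bedtools 2.31.1 and copies (at least 95% identity over 200 bases) from minimap2 2.31-r1302. Scripts were tested on simulated data.

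The members and lists were chosen with earlier results of these data known. Named are all members and, per list and comparison, up to 4 called genes with the smallest adjusted p. The 2 of highest level in each list are named too, as are the 2 genes nearest each member. Nearest genes were sought among protein-coding genes of at least 5 CPM with at most 25% of their exons overlapping other protein-coding genes. These are the genes counted alike. Outside this rule stand Prss8, named because it is not drawn, the cell type markers, Ddx3y, Cldn9 and Wbscr25. Grhl1, Grhl3, Elf3, Zeb1, Zeb2 and Snai2 do too, having been named after their values were seen. Some genes of the regulator list enter its counts but are not reported here singly. Alternatives were other scaling, no filter, DESeq2, limma-voom, FPKM, genes counted alike, other libraries in the fit, a replicate block and each library left out.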

Additional observations from a re-analysis of the deposited data

How the results depend on the processing

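Over 356 values of members under the alternatives, 313 kept their direction and their side of the threshold, 19 became called, 15 lost their call and 9 turned in sign. Cldn1 and Cldn7 in Bec_LPCs against Hep_LPCs kept their calls in every alternative run. The cause of the turns was not tested. In Hep_LPCs against NPC_LPCs, leaving out 1 library gave -0.20 to 8.23 for Cldn3, -6.38 to 0.15 for Cldn4, -4.13 to 11.55 for Cldn6 and -0.17 to 0.56 for Tjp1. The 11.55 is against NPC_LPCs replicate 1 alone, which had 0 reads of Cldn6, so its size is not a measured fold. In Bec_LPCs against NPC_LPCs, Cldn2 turned to 0.092 with library size alone, and leaving out 1 library gave -0.23 to 0.063 for Cldn2 and -0.010 to 0.37 for Cldn12. In Bec_LPCs against Hep_LPCs, Cldn12 turned to 0.12 with library size alone.

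The members called higher, 2 against NPC_LPCs and 4 against Hep_LPCs, numbered 0 to 4 and 2 to 4 with 1 library left out. Members called lower in Bec_LPCs numbered 0, and 1 (Tjp1) by DESeq2 against Hep_LPCs, 1 with the 4 libraries alone against NPC_LPCs, and 0 to 1 with 1 library left out. Between Hep_LPCs and NPC_LPCs, 0 became 1 higher by DESeq2 and in the fit of 6 (Ocln), 1 lower by DESeq2 (Cldn2), and 0 to 1 each way with 1 library left out.

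Genes called in Hep_LPCs against NPC_LPCs numbered 95, and 449 with no filter, 1521 by DESeq2's Wald test, 5 by limma-voom, 1274 in the fit of 6, 12 on log2(FPKM + 1), and 0 to 356 with 1 library left out. The 0 came without either Hep_LPCs library, where 2026 and 2228 genes were at an unadjusted p under 0.05 by edgeR. In Bec_LPCs against NPC_LPCs, 1458 became 2873 by DESeq2, 2491 with the 4 libraries alone and 115 to 2363 with 1 library left out. In Bec_LPCs against Hep_LPCs, 4294 became 489 to 4908 with 1 library left out. A lone library is assumed to vary like the other groups.

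Deviations of libraries with the same replicate number correlated over 12867 genes at 0.13 (Bec_LPCs and NPC_LPCs), -0.07 (Bec_LPCs and Hep_LPCs) and -0.04 (NPC_LPCs and Hep_LPCs). With 2 libraries a group, these values cannot settle whether the numbers mark a pairing. With the replicate number as a block, 126, 770 and 3389 genes were called in the 3 comparisons, the second of these against 1458, and no member changed its call. Of the called list genes, 1 of 3, 8 of 11 and 21 of 24 kept their call under it, and Cdx2 between Hep_LPCs and NPC_LPCs lost it. Depth limits Cldn15 (at most 6 reads) and Cldn7 outside Bec_LPCs.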
